A study of Homo sapiens with 9 samples.

Results

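The response common to 2 peracetylated amino sugars, Ac-GlcNAc and Ac-4-deoxy-GlcNAc, was described in SKOV3 cells, an established human ovarian tumour line. Ac-GlcNAc is the acetylated form of N-acetylglucosamine, and Ac-4-deoxy-GlcNAc lacks the oxygen function at carbon 4. The members were the 6 arrays of both compounds out of 9 arrays in all: 3 of Ac-GlcNAc and 3 of Ac-4-deoxy-GlcNAc, set against 3 untreated arrays. Each compound was given at 50 µM, and the flasks were kept for 3 days in McCoy's 5A medium with serum. Each array held RNA from a separate flask, per the labels. The labels name no vehicle for the untreated flasks, so the sugar, its acetyl groups and any solvent were added together and cannot be told apart. In these bulk samples, fewer cells of a type and less RNA per cell cannot be told apart either.

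Acetyl groups mask the hydroxyls of a sugar so that it can cross the cell membrane, and esterases inside the cell then remove them and release acetate. GlcNAc enters the hexosamine salvage pathway and becomes UDP-GlcNAc, the donor for glycans and for O-GlcNAc, a sugar that OGT adds to nuclear and cytosolic proteins and OGA removes. A sugar without the hydroxyl at carbon 4 cannot be extended there, and such analogs are used to lower heparan sulfate and other glycans. Cells meet reactive or metabolic loads with stress programmes. In the NRF2 programme, modification of KEAP1 frees the factor NRF2, which binds antioxidant response elements in genes for redox and detoxifying enzymes. In the ATF4 programme, amino acid shortage or stress in the endoplasmic reticulum (ER) raises genes of serine synthesis and amino acid supply.

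The pooled comparison gave each compound equal weight: the mean of both treated group means minus the untreated mean, on the deposited log2 scale. At an adjusted p under 0.05 (limma, Benjamini-Hochberg over 17859 probe sets) it called 2033 probe sets, or 11.4%. A probe set was counted as shared where it named 1 gene, was called in this comparison and differed from untreated in the same direction with each compound. That held for 1625 of the 14413 single-gene probe sets, or 11.3%, of which 732 (5.08%) were higher and 893 (6.2%) were lower. Of the called single-gene probe sets, 7 had opposite signs with the 2 compounds. Opposite changes cancel in the pooled difference and are rarely called, so this low count largely follows from the rule. Both compounds were compared with the same 3 untreated arrays, so an unusual untreated array pushes both differences in 1 direction. A stricter reading, called with each compound by itself, left 37 of the 14413, or 0.257%.

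Untreated replicate 2 stood apart from the other arrays and touched most of these calls. Its SD over probe sets was 1.92, against 2.07 to 2.18 on the other 8 arrays, and it was the untreated array farthest from the treated ones for 1337 of the 1625 shared probe sets. Over all single-gene probe sets, it lay outside the other 2 untreated arrays, on either side, for 11447 of 14413, or 79.4%. Among the 2883 single-gene probe sets of the lowest quintile of level, its median was 4.59, against 4.30 and 4.29 on untreated replicates 1 and 3. In the highest quintile its median was 9.55, against 9.69 and 9.71. The shared calls followed level in the same way: 416 were lower and 3 higher in the lowest quintile, and 37 were lower and 271 higher in the highest quintile. In quintile 4, just below the highest, 61 of 2882 were lower and 261 higher. The shares of 5.08% and 6.2% set beside gene lists below are over all levels. Lists of high-level genes meet a larger background of higher calls and a smaller one of lower calls, and lists of low-level genes the reverse. Without untreated replicate 2 the shared count was 106 of 14413, or 0.735%, with 10 lower and 0 higher calls in the lowest quintile and 6 lower and 15 higher in the highest. With each array's SD added to the model as a covariate, 4 shared calls were left, all lower: AMTN, NMUR2, MMP1 and C2orf74-DT.

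**Figure D1:**
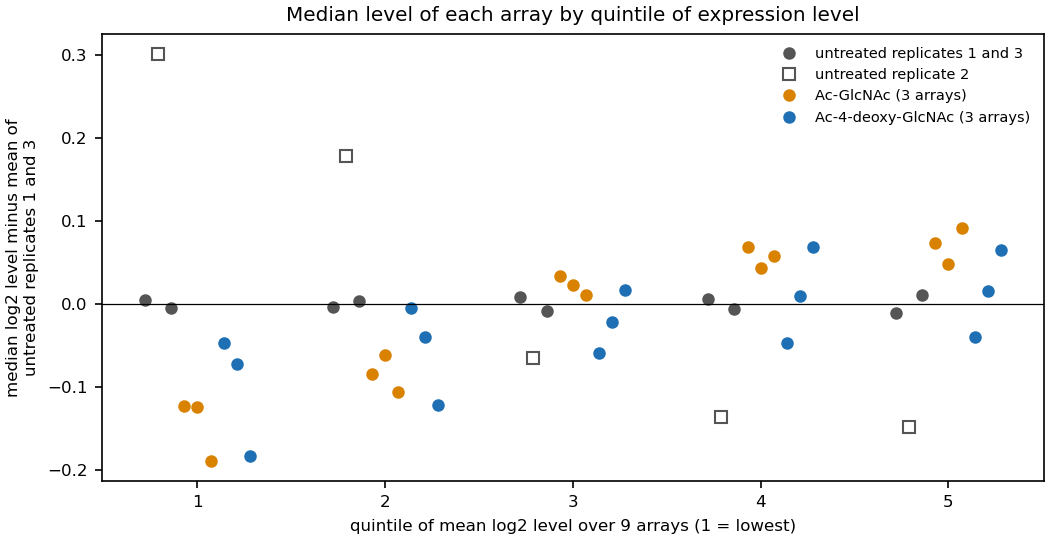
Median log2 level of each array within quintiles of mean expression level (1 lowest, 5 highest), relative to the mean of untreated replicates 1 and 3; each point is 1 array. Untreated replicate 2 (open squares) lies above all other arrays in quintiles 1 and 2 and below them in quintiles 3 to 5, while the treated arrays lie below 0 in quintiles 1 and 2.

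Receptor genes of smell and taste, which are best known from sensory cells, show how far the low range moved. Of 239 measured, 30 were shared lower and 1 shared higher, against 6.2% and 5.08% of single-gene probe sets, and the median pooled difference was -0.18. Without untreated replicate 2 the median was -0.08 with 1 lower and 0 higher, and after cyclic loess normalization it was 0.04. For this reason the description below rests on the probe sets that were shared in the fit of all arrays and in each of 9 fits with 1 array left out. There were 100 of them, or 0.694% of the 14413, each of a different gene, 38 higher and 62 lower. The 62 still held 1 gene of the receptor list, the olfactory receptor gene OR1E1. It was at -1.04, a fall exceeded in the set only by AMTN and NMUR2, and at -0.83 without untreated replicate 2. This set of 100 genes was formed after the counts had been seen, and the genes named from it were chosen with their values known, so their number is a description. The set also had to be called without untreated replicate 2. Without that array the pooled differences of the 100 genes were 66.4% (PIR) to 117% (SLC51B) of those from all arrays, with a median of 92.7%, and values from that fit are given beside many of the genes below.

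Most of the 100 genes moved moderately. The median pooled difference of the 38 higher genes was 0.60 (0.44 with Ac-GlcNAc and 0.73 with Ac-4-deoxy-GlcNAc), and 0.51 without untreated replicate 2. The median of the 62 lower genes was -0.64 (-0.49 and -0.78), and -0.58 without that array, while the median over all single-gene probe sets was -0.03. The pooled change was at least 1.5-fold for 20 of the higher and 42 of the lower genes. The 6 treated arrays lay wholly above the 3 untreated arrays for 36 of the 38 and wholly below for 57 of the 62. Over all probe sets 6.61% lay wholly above and 9.98% wholly below. The 100 genes were selected by calls on these same arrays, so their separation largely follows from the selection. By itself Ac-GlcNAc was called for 11 of the higher and 22 of the lower genes, and Ac-4-deoxy-GlcNAc for 36 and 62, so that 31 of the 100 were called with each. An adjusted p given below for a pooled difference therefore does not show a call with each compound. With replicate 1, 2 or 3 of Ac-GlcNAc left out, 2, 1 and 2 probe sets were called with each compound.

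**Figure D2:**
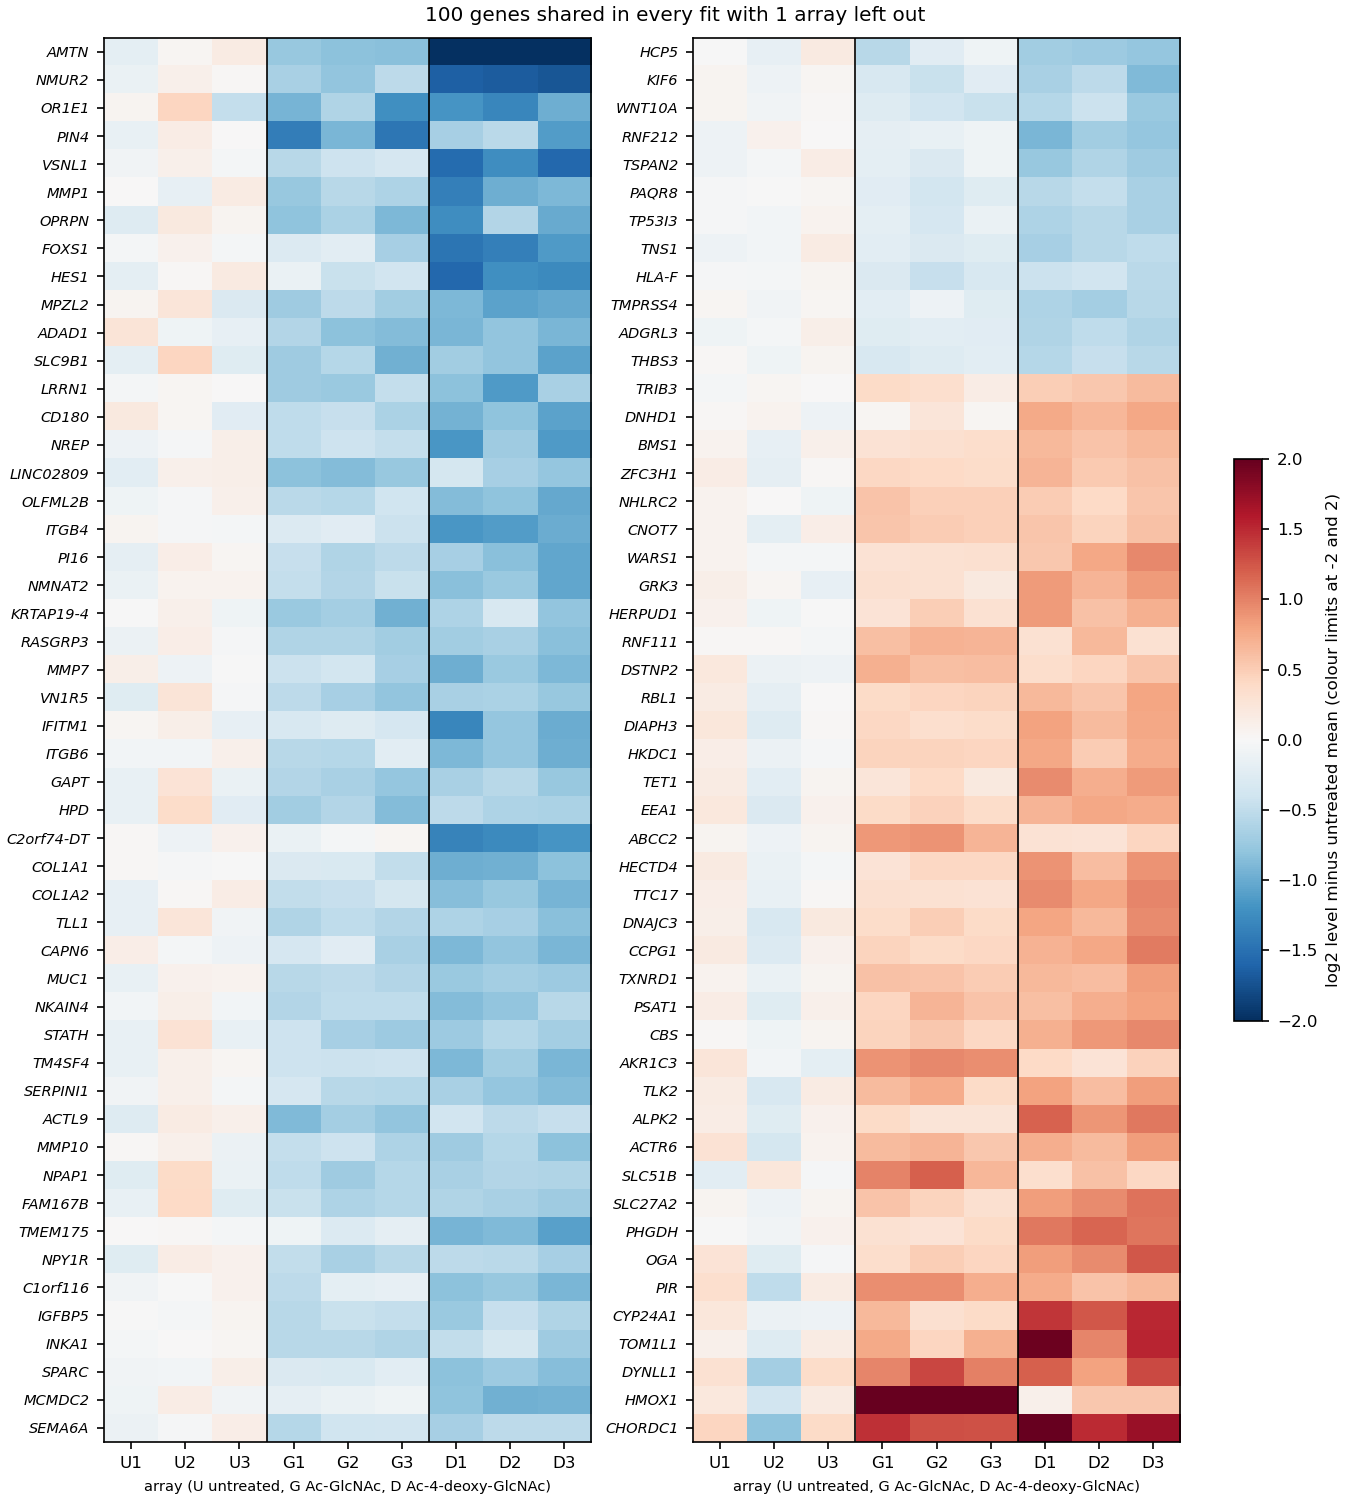
Log2 level minus the untreated mean for the 100 genes in rows, ordered by pooled difference, on 9 arrays in columns (U untreated, G Ac-GlcNAc, D Ac-4-deoxy-GlcNAc, replicates 1 to 3). The 62 lower genes run from AMTN to THBS3 and the 38 higher genes from TRIB3 to CHORDC1; untreated replicate 2 is lower than the other untreated arrays for many of the higher genes.

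Untreated cells carried markers of the labelled cell type: the log2 level was 12.22 for ERBB2, which is amplified in this line, 11.19 for the epithelial keratin KRT8, 10.63 for PAX8 and 8.23 for EPCAM. The ovarian marker WFDC2 was at 5.81 and WT1 at 5.68, toward the low end of the scale. Of 18 measured epithelial and ovarian markers, CD24 was shared higher and MUC1 and KRT19 were shared lower, against 5.08% and 6.2% of single-gene probe sets. Of these, MUC1 alone was called without untreated replicate 2.

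Antioxidant genes of the NRF2 programme rose in part. Of 22 measured genes of an NRF2 list, 9 were shared higher and 0 lower, against 5.08% and 6.2% of single-gene probe sets. At an unadjusted p under 0.05 and with 1 sign for both compounds, 11 were higher and 0 lower, against 13.9% and 19.8%. Of the 9, 5 were also higher without untreated replicate 2, and the same 5 belonged to the set of 100. The list's median level was 9.53, in the highest quintile, where 271 of 2883 single-gene probe sets were shared higher and 37 lower. Its median pooled difference was 0.22, with 0.38 for Ac-GlcNAc and 0.08 for Ac-4-deoxy-GlcNAc. The 5 genes were TXNRD1, PIR, AKR1C3, ABCC2 and HMOX1.

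TXNRD1, the cytosolic thioredoxin reductase, changed alike with either compound. Its log2 level was 9.04, 8.85 and 9.03 on untreated replicates 1, 2 and 3, 9.55, 9.55 and 9.48 with Ac-GlcNAc, and 9.63, 9.59 and 9.80 with Ac-4-deoxy-GlcNAc. All 6 treated arrays lay above the 3 untreated ones. The pooled difference was 0.63 (SE 0.08, 1.55-fold, adjusted p = 0.00258, limma), or 0.57 without untreated replicate 2. The analog exceeded Ac-GlcNAc by 0.15 on the log2 scale, with a 95% interval from -0.06 to 0.36.

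PIR encodes pirin, an iron-binding nuclear protein. Its levels were 8.77, 7.92 and 8.59 in untreated cells, 9.35, 9.35 and 9.15 with Ac-GlcNAc, and 9.17, 8.99 and 9.07 with Ac-4-deoxy-GlcNAc. Untreated replicate 2 was the lowest, and the treated arrays did not overlap the untreated ones. The pooled difference of 0.75 (SE 0.15, adjusted p = 0.0152, limma) was 0.50 without that array.

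AKR1C3, an aldo-keto reductase that reduces steroids and prostaglandins, and ABCC2, an export pump for glutathione conjugates, rose more with Ac-GlcNAc. AKR1C3 was at 9.82, 9.53 and 9.39 in untreated cells, 10.48, 10.55 and 10.52 with Ac-GlcNAc, and 9.98, 9.85 and 10.05 with Ac-4-deoxy-GlcNAc. The highest untreated array lay just below the lowest array of the analog. ABCC2 was at 5.99, 5.83 and 5.98, then 6.80, 6.84 and 6.62, then 6.23, 6.21 and 6.37 in the same order. For each, the analog's change was smaller by a called amount: the difference between compounds was -0.55 for AKR1C3 (interval -0.79 to -0.31) and -0.48 for ABCC2 (interval -0.70 to -0.27), with adjusted p = 0.0216 and 0.0221 (limma). Without untreated replicate 2 the pooled differences of 0.66 and 0.58 were 0.63 and 0.52. AKR1C3 has close paralogues, and its symbol also stood on a probe set of several genes; which copies its probes read was not tested.

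HMOX1, the heme-degrading heme oxygenase 1, met the pooled criterion through Ac-GlcNAc. It was at 7.70, 7.11 and 7.67 in untreated cells, 9.75, 9.59 and 9.54 with Ac-GlcNAc, and 7.59, 8.04 and 8.03 with Ac-4-deoxy-GlcNAc. One array of the analog lay within the untreated range. The change was 2.13 (SE 0.16) with Ac-GlcNAc and 0.39 (SE 0.16, adjusted p = 0.12, limma) with the analog, and 0.20 with the analog when untreated replicate 2 was left out. The other 4 shared NRF2 genes were FTL, ME1, SRXN1 and GCLM, for ferritin light chain, malic enzyme, sulfiredoxin and the modifier subunit of glutathione synthesis, with pooled differences from 0.49 to 0.32. None of these 4 was called without untreated replicate 2. GCLM was at 0.59 with Ac-GlcNAc and 0.05 with the analog. SLC7A11, the cystine importer, and GSR, glutathione reductase, had pooled differences of 0.10 and 0.15 and were not called.

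The promoters of the 2 balanced NRF2 genes are shown because both hold the core letters of the antioxidant response element, TGACNNNGC, searched on both strands and marked in capitals. The sequences are from RefSeq (GRCh38.p14). The first is the 150 bases before an annotated start of TXNRD1 at chr12:104215629-104215778 (plus strand), with the match from 99 to 91 bases before the start. The second is 30 bases of PIR at chrX:15493288-15493317 (minus strand), with the match 27 to 35 bases after the start, where it overlaps an AP-1 letter match.
TXNRD1: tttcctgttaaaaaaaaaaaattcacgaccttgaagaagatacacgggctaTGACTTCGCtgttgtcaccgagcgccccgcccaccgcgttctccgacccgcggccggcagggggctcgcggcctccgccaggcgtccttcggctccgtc
PIR: gccgcgaagcGCTGAGTCAcggtgaggcta

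A further match spans the TXNRD1 start, and a second annotated TXNRD1 start has 1 match in its window. Promoter windows of 300 bases, 250 before and 50 after a start, were found for 79 of the 100 genes. The element was present in 6 of 32 higher genes (18.8%) and 9 of 47 lower genes (19.1%), against 16.1% of 27305 genes with a window. The higher genes with a match were TXNRD1, PIR, CBS, TRIB3, WARS1 and DYNLL1. The share in the higher genes was therefore close to that of all genes.

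Of 32 measured genes of a list for ATF4 and the amino acid response 9 were shared higher and 0 lower, against 5.08% and 6.2% of single-gene probe sets. At an unadjusted p under 0.05, 15 were higher and 1 lower, against 13.9% and 19.8%. Of the 9, 4 (PHGDH, PSAT1 and CBS of serine and cysteine synthesis, and TRIB3) were higher without untreated replicate 2 and belong to the set of 100. The list's median level was 8.07, in quintile 4, where 261 of 2882 single-gene probe sets were shared higher and 61 lower. Its median difference was 0.21, with 0.16 for Ac-GlcNAc and 0.23 for Ac-4-deoxy-GlcNAc. By itself Ac-GlcNAc was called for 0 of the 32 genes and the analog for 10. The factor's own gene, ATF4, was at 0.18 (adjusted p = 0.29, limma), and ASNS, asparagine synthetase and a standard target, at 0.05 (adjusted p = 0.71).

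PHGDH, the first enzyme of serine synthesis, was at 8.45, 8.39 and 8.54 in untreated cells, 8.77, 8.73 and 8.84 with Ac-GlcNAc, and 9.52, 9.63 and 9.52 with Ac-4-deoxy-GlcNAc. The 3 groups did not overlap, with Ac-GlcNAc in between. The pooled difference was 0.71 (SE 0.08, 1.63-fold, adjusted p = 0.00119, limma), made of 0.32 and 1.10, and 0.67 without untreated replicate 2. PSAT1, the next enzyme of the pathway, was at 9.94, 9.54 and 9.89, then 10.21, 10.47 and 10.36, then 10.39, 10.52 and 10.59. Here the treated groups overlapped each other and neither reached the untreated range. Its pooled difference was 0.63 (SE 0.10, adjusted p = 0.00705), or 0.51 without untreated replicate 2, and the compounds differed by an interval from -0.11 to 0.41.

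CBS, which joins serine to homocysteine on the way to cysteine, was at 7.57, 7.46 and 7.60 in untreated cells, 7.99, 8.08 and 7.95 with Ac-GlcNAc, and 8.26, 8.41 and 8.50 with Ac-4-deoxy-GlcNAc. Again the groups were ordered without overlap. The pooled difference was 0.65 (SE 0.08, adjusted p = 0.00209, limma), and 0.61 without untreated replicate 2. TRIB3, a pseudokinase induced by ATF4, rose by 0.42 (SE 0.08, adjusted p = 0.0152). The other shared members were SLC1A5, PCK2, DDIT3, CEBPB and SLC38A2, between 0.49 and 0.35, which were not called without untreated replicate 2. DDIT3 encodes CHOP, a factor of prolonged ER stress, and SLC1A5 and SLC38A2 import neutral amino acids.

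Among 17 aminoacyl-tRNA synthetases, the enzymes that load transfer RNAs, 3 were shared higher and 0 lower, against 5.08% and 6.2%, and WARS1 was also higher without untreated replicate 2. WARS1 was at 9.31, 9.21 and 9.21, then 9.53, 9.55 and 9.57, then 9.78, 10.03 and 10.21. It rose by 0.53 (SE 0.09, adjusted p = 0.0109, limma), and by 0.51 without that array. IARS1 and CARS1 were at 0.39 and 0.42. The list's median difference was 0.06, and -0.03 after cyclic loess normalization. Its median level was 9.73, in the highest quintile.

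Of 29 measured genes of the unfolded protein response and ER quality control, 8 were shared higher and 1, DNAJB9, lower, against 5.08% and 6.2% of single-gene probe sets. The list's median level was 8.83, in quintile 4. Ac-GlcNAc by itself was called for 0 of the 29 genes and the analog for 10. HERPUD1 and DNAJC3 were higher without untreated replicate 2, where 0.735% of single-gene probe sets were shared in either direction. HERPUD1, a membrane protein of the degradation complex of the ER, was at 10.06, 9.89 and 9.97 in untreated cells, 10.25, 10.47 and 10.28 with Ac-GlcNAc, and 10.82, 10.56 and 10.68 with Ac-4-deoxy-GlcNAc. The groups followed each other without overlap. It rose by 0.54 (SE 0.09, adjusted p = 0.00779, limma), and by 0.50 without untreated replicate 2. DNAJC3, a co-chaperone of BiP that also restrains the kinase PERK, was at 7.69, 7.25 and 7.76, then 7.94, 8.05 and 7.94, then 8.36, 8.22 and 8.51, and rose by 0.60 (SE 0.11, adjusted p = 0.013), or 0.45 without that array.

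The remaining shared ER genes were DERL2, HSPA5, PDIA4, SELENOS, HYOU1 and SEL1L, chaperones and parts of the degradation machinery, at 0.50 to 0.37. They were not called without untreated replicate 2. DNAJB9, an ER co-chaperone, fell by 0.53, opposite to the others and likewise not called without that array, and XBP1 was at 0.10 (adjusted p = 0.41, limma). CCPG1, a receptor that delivers ER to autophagy and lies outside the list, rose by 0.63 (SE 0.11, adjusted p = 0.0105) and by 0.49 without untreated replicate 2.

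CHORDC1, a co-chaperone that binds HSP90, had the largest rise of the 100 genes in the fit of all arrays. It was at 8.92, 7.67 and 8.86 in untreated cells, 9.95, 9.78 and 9.75 with Ac-GlcNAc, and 10.59, 9.97 and 10.21 with Ac-4-deoxy-GlcNAc. All treated arrays lay above all untreated ones, of which replicate 2 was lower by more than 1 unit. The pooled difference of 1.56 (SE 0.22, 2.95-fold, adjusted p = 0.00354, limma) was 1.15 without that array. Of the other heat shock genes only HSPH1 and BAG3 were shared, at 0.37 and 0.35, so that 3 of 16 measured were higher and 0 lower, against 5.08% and 6.2%. The median level of these 16 was 9.23, in the highest quintile. HSPA8 and HSPB1, the constitutive HSP70 and a small heat shock protein, were at 0.02 and -0.09. CHORDC1 was also named on a probe set of several genes. That held for 11 of the 100 genes, among them AKR1C3, CCPG1, COL1A2, NHLRC2, TLK2 and TOM1L1.

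DYNLL1, a light chain of the dynein motor, showed equal changes of 1.11 with each compound, but its spread was wide. It was at 11.26, 10.28 and 11.32 in untreated cells, 11.93, 12.29 and 11.96 with Ac-GlcNAc, and 12.15, 11.76 and 12.27 with Ac-4-deoxy-GlcNAc. Without untreated replicate 2 the difference was 0.77. TUBA1B, an alpha tubulin, differed by 1.02 with each compound, was called in the fit of all arrays (adjusted p = 0.0173, limma) and was not called without untreated replicate 2 (0.84, adjusted p = 0.096). It has near-identical paralogues, which the probes may also read.

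**Figure D3:**
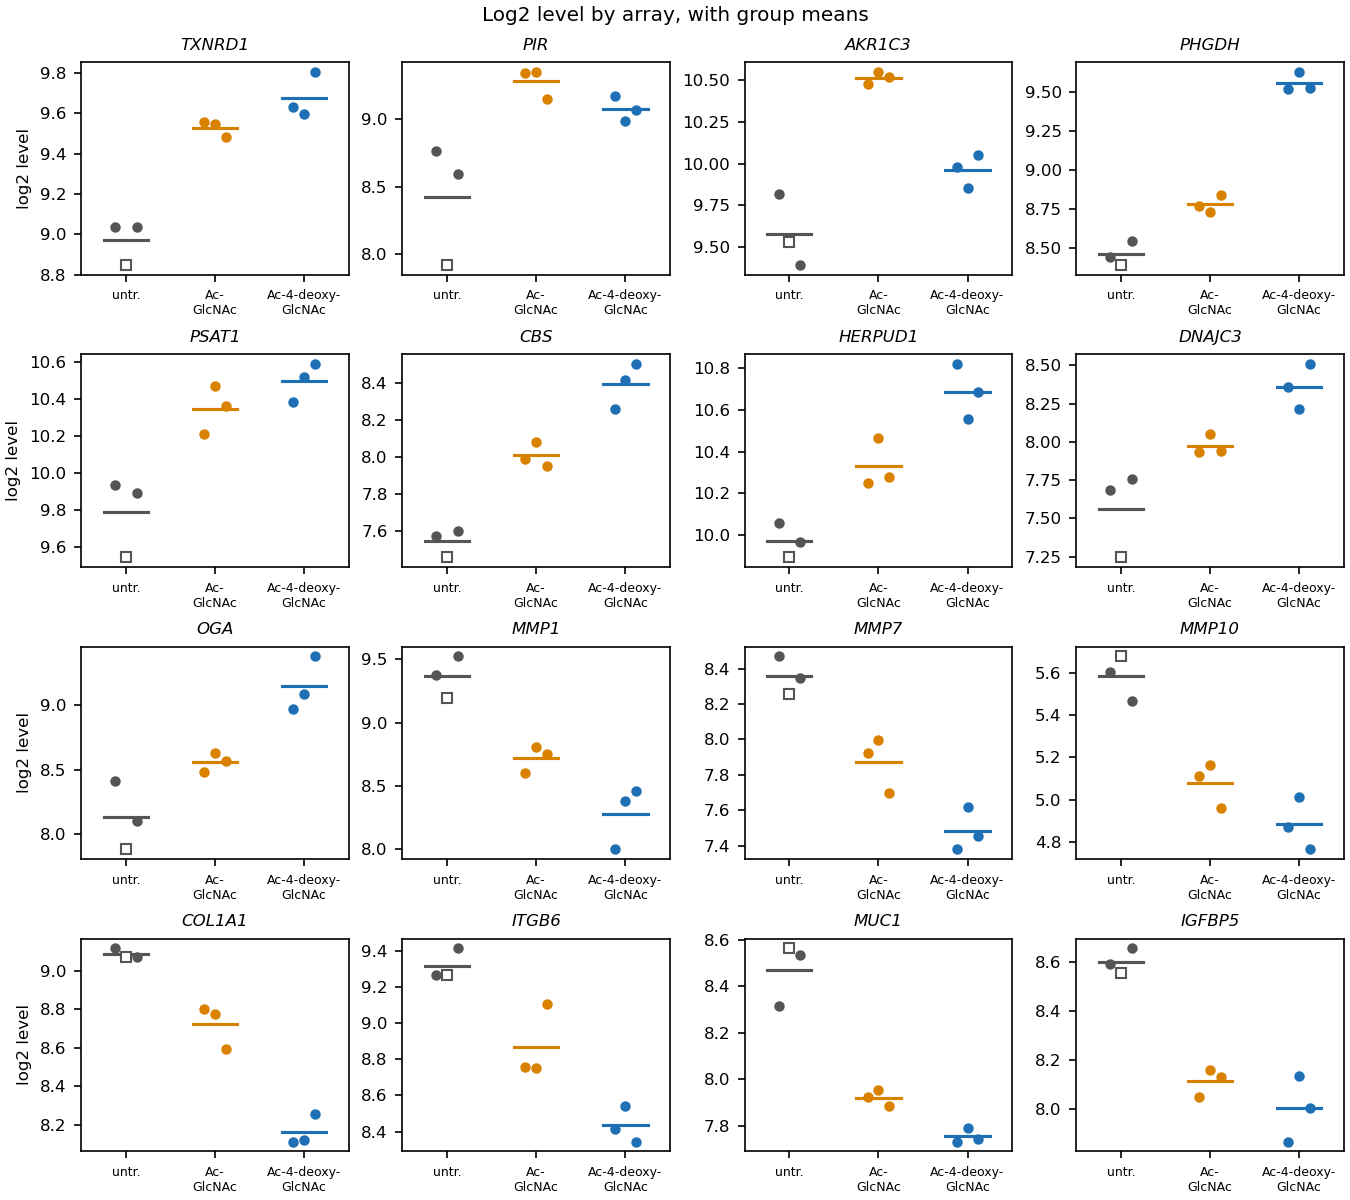
Log2 levels of 16 of the 100 genes on each array (points) with group means (lines); the open square is untreated replicate 2 and each panel has its own scale. In every panel the 6 treated arrays lie on 1 side of the 3 untreated arrays. In all panels but PIR, AKR1C3, PSAT1, MMP10 and IGFBP5 the Ac-GlcNAc arrays lie wholly between the other groups.

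Of the 3 measured genes of O-GlcNAc cycling, OGA and OGT were shared higher, against 5.08% of single-gene probe sets. OGA, the hydrolase that removes O-GlcNAc, was at 8.41, 7.88 and 8.10 in untreated cells, 8.48, 8.63 and 8.57 with Ac-GlcNAc, and 8.96, 9.08 and 9.37 with Ac-4-deoxy-GlcNAc. The lowest Ac-GlcNAc array stood just above the highest untreated one. OGA rose by 0.72 (SE 0.12, adjusted p = 0.00748, limma), or 0.59 without untreated replicate 2, and the change was larger with the analog by 0.58 (interval 0.29 to 0.88, adjusted p = 0.04). With Ac-GlcNAc alone its rise of 0.43 was not called (adjusted p = 0.10, limma). OGT, the transferase, rose by 0.40 (SE 0.08, adjusted p = 0.017) with 0.22 and 0.58, and was not called without untreated replicate 2 (0.37, adjusted p = 0.067).

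HKDC1, a protein with hexokinase domains, rose by 0.56 (SE 0.09, adjusted p = 0.0063, limma) and by 0.50 without untreated replicate 2. Of 23 hexosamine and nucleotide sugar genes 3 were shared higher (SLC35D2, NANS and GNE) and 1 lower (NAGK, the kinase that salvages GlcNAc, at -0.10 with Ac-GlcNAc and -0.51 with the analog), against 5.08% and 6.2%, and none was called without untreated replicate 2. GFPT1, the entry enzyme of the hexosamine pathway, was at 0.03. Of 28 heparan sulfate genes 2 were shared lower, EXTL2 at -0.58 and NDST3 at -0.31, of 37 N-glycan genes 1 was shared higher, and of 33 lysosomal genes 2 were higher and 2 lower. The last 3 counts were near the background of 5.08% higher and 6.2% lower or below it. Of the 28 heparan sulfate genes, 17 were negative and 5 positive with both compounds. Their median pooled difference was -0.13, and -0.07 without untreated replicate 2. At an unadjusted p under 0.05 and with 1 sign for both compounds, 8 were lower and 1 higher, against 19.8% and 13.9%.

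Of 33 genes for esterases, acetate use and lysine deacetylases, 3 were shared higher and 3 lower, against 5.08% and 6.2%, and none without untreated replicate 2. ACSS2, which turns acetate into acetyl-CoA, was at 0.41 (0.20 and 0.62), SIRT1 at 0.41, and the esterase gene BCHE at -0.59. CES2, a carboxylesterase that cleaves ester prodrugs, was at 0.03, and HDAC1, HDAC2 and HDAC3 were at 0.00, -0.09 and -0.06.

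Of 16 measured transporters of drugs, bile acids and organic ions, 3 were shared higher (ABCC2, SLC51B and SLCO4A1) and 1 lower (SLCO2A1), with 7 positive and 7 negative with both compounds. Of 20 xenobiotic receptors and oxidases 2 were shared higher (CYP24A1 and MGST1) and 2 lower (CYP3A5 and VDR), with a median of -0.01 and 10 negative with both. These counts stand against 5.08% higher and 6.2% lower. SLC51B, a subunit of the bile acid and steroid exporter OST, was at 6.65, 7.09 and 6.84, then 7.85, 8.06 and 7.53, then 7.19, 7.45 and 7.27. All treated arrays lay above the untreated ones, and untreated replicate 2 was here the closest to them. The rise was 0.70 (SE 0.12, adjusted p = 0.0109, limma) and 0.81 without untreated replicate 2. Its partner SLC51A was at -0.22 (adjusted p = 0.11).

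CYP24A1, the enzyme that inactivates vitamin D, was at 7.19, 6.85 and 6.87 in untreated cells, 7.62, 7.28 and 7.35 with Ac-GlcNAc, and 8.39, 8.21 and 8.48 with Ac-4-deoxy-GlcNAc. It rose by 0.92 (SE 0.11, adjusted p = 0.00158, limma), or 0.86 without untreated replicate 2, and the analog exceeded Ac-GlcNAc by 0.94 (interval 0.68 to 1.21). The rise of CYP24A1 with Ac-GlcNAc alone, 0.45, was not called (adjusted p = 0.089, limma). The vitamin D receptor gene VDR was lower, at -0.28 (adjusted p = 0.045). SLC27A2, which activates and imports long fatty acids, was at 6.85, 6.69 and 6.85, then 7.37, 7.25 and 7.12, then 7.63, 7.75 and 7.89, and rose by 0.71 (SE 0.09, adjusted p = 0.00209), or 0.65 without untreated replicate 2.

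Other higher genes of the set had roles in RNA, chromatin and membranes. CNOT7, a nuclease that shortens poly(A) tails, NHLRC2 and RNF111, a ubiquitin ligase, were called with each compound. CNOT7 was at 0.51 and 0.53 with Ac-GlcNAc and the analog, NHLRC2 at 0.51 and 0.49, and RNF111 at 0.66 and 0.42. The adjusted p of CNOT7 with Ac-GlcNAc was 0.0494 (limma). TET1, which oxidises methylated cytosine, TLK2, a kinase of chromatin assembly, and ACTR6, a subunit of a histone exchange complex, rose by 0.56, 0.67 and 0.67, and by 0.45, 0.51 and 0.49 without untreated replicate 2. EEA1 of early endosomes, DIAPH3, an actin formin, and TOM1L1, a sorting adaptor, rose by 0.57, 0.56 and 1.06, and by 0.42, 0.43 and 0.93 without that array. TOM1L1 differed between compounds, at 0.63 with Ac-GlcNAc and 1.49 with the analog (adjusted p = 0.037, limma).

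Among the lower genes were neighbouring matrix metalloproteinases. These secreted enzymes cut collagens and other matrix proteins, and 9 of their genes lie side by side on chromosome 11 from MMP7 to MMP13, all 9 measured. MMP1, MMP7, MMP10 and MMP13 were shared lower and none was shared higher, against 6.2% and 5.08% of single-gene probe sets. The first 3 belong to the set of 100. The other 5, MMP20, MMP27, MMP8, MMP3 and MMP12, had untreated levels from 3.93 to 4.65 and differences from -0.09 to -0.32, none called. MMP10 and MMP13 were also low in untreated cells, at 5.58 and 4.84. In the lowest quintile of level 416 of 2883 single-gene probe sets were shared lower and 3 higher. In quintile 2, 253 of 2882 were shared lower and 27 higher.

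MMP1, interstitial collagenase, was at 9.38, 9.20 and 9.52 in untreated cells, 8.60, 8.80 and 8.76 with Ac-GlcNAc, and 8.0, 8.38 and 8.46 with Ac-4-deoxy-GlcNAc. Each treated array lay below each untreated one. It fell by 0.86 on the log2 scale (SE 0.11, 1.82-fold, adjusted p = 0.00209, limma), with -0.64 and -1.09 for the 2 compounds, and the difference was -0.95 without untreated replicate 2. It was called with each compound, just under the threshold with Ac-GlcNAc (adjusted p = 0.0494, limma), and with the SD covariate (-1.10).

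MMP7, matrilysin, was at 8.47, 8.25 and 8.35, then 7.92, 8.0 and 7.70, then 7.38, 7.62 and 7.46. MMP10, stromelysin 2, was at 5.60, 5.68 and 5.47, then 5.11, 5.16 and 4.96, then 4.87, 5.01 and 4.76. In neither gene did a treated array reach the untreated range. They fell by 0.68 (SE 0.09, adjusted p = 0.00308, limma) and 0.60 (SE 0.09, adjusted p = 0.00426), and by 0.73 and 0.56 without untreated replicate 2. MMP13, collagenase 3, fell by 0.41 (adjusted p = 0.0275) but did not stay in the set.

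Promoters of MMP7 and MMP10 are shown because both hold an AP-1 letter match, TGANTCA, at the same distance from the start, 67 to 61 bases before it. AP-1 factors of the FOS and JUN families bind such letters, and these genes are textbook AP-1 targets. Shown are the 150 bases before each start from RefSeq (GRCh38.p14), on the minus strand, at chr11:102530748-102530897 for MMP7 and chr11:102780629-102780778 for MMP10, with the match in capitals.
MMP7: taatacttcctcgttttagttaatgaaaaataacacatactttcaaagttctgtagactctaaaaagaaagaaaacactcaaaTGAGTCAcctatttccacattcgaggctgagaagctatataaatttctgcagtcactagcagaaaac
MMP10: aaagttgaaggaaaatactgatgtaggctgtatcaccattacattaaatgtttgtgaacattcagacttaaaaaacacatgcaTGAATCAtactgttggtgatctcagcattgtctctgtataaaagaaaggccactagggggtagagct

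These letters were in 10 of the 47 lower genes with a window (21.3%) and 2 of the 32 higher genes (6.25%), against 9.37% of all 27305. The motif reads the same on both strands, and it overlapped the antioxidant letters in 197 of 35116 windows. The other lower genes with a match were C1orf116, CAPN6, CD180, HPD, NREP, SLC9B1, STATH and TMEM175. Of the lower genes with a match, CAPN6, CD180, HPD, MMP10, SLC9B1 and STATH had mean levels from 4.41 to 5.73. These lie in quintiles 1 and 2 of level, where untreated replicate 2 read high. Whether AP-1 had a part in the falls was not tested. The C/EBP-ATF letters TGATGNAA were in 3 higher genes (HERPUD1, ALPK2 and SLC51B, 9.38%) and 0 lower genes, against 4.46%. A match is a description of letters and does not show binding.

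Of 35 measured extracellular matrix genes 6 were shared lower and 1, NID2, higher, against 6.2% and 5.08% of single-gene probe sets. COL1A1, COL1A2 and SPARC were lower without untreated replicate 2. With Ac-GlcNAc alone 0 of the 35 genes were called, and with the analog alone 11. COL1A1, a chain of type I collagen, was at 9.12, 9.07 and 9.07 in untreated cells, 8.80, 8.77 and 8.60 with Ac-GlcNAc, and 8.11, 8.12 and 8.26 with Ac-4-deoxy-GlcNAc. The 3 groups were separate. It fell by 0.64 (SE 0.08, adjusted p = 0.00209, limma), or 0.65 without untreated replicate 2, and the analog was lower than Ac-GlcNAc by an interval from -0.76 to -0.36.

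COL1A2, the second chain, was at 6.81, 7.0 and 7.12, then 6.49, 6.52 and 6.63, then 6.12, 6.21 and 6.04, and also fell by 0.64 (SE 0.09, adjusted p = 0.00308, limma). SPARC, which binds collagen, was at 11.24, 11.25 and 11.42, then 11.01, 10.99 and 11.10, then 10.48, 10.58 and 10.45, and fell by 0.53 (SE 0.08, adjusted p = 0.00465). In both genes Ac-GlcNAc lay between untreated cells and the analog. BGN, COL5A2 and TGFBI were shared at -0.49, -0.36 and -0.32 and NID2 at 0.39, all not called without untreated replicate 2. FN1, fibronectin, and LAMC1, a laminin chain, were at -0.03 and -0.06.

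COL1A1 and COL1A2 also mark fibroblasts. Of 9 measured fibroblast markers 4 were shared lower, against 6.2%; the other 2 were FAP and POSTN, with untreated levels of 4.42 and 5.0. THY1, DCN and PDGFRB had untreated levels of 4.71, 4.52 and 5.76 and were not called, at 0.07, -0.34 and -0.06. Of the 9 markers, 8 were negative with both compounds and 0 positive with both. The median pooled difference was -0.37, and -0.28 without untreated replicate 2. At an unadjusted p under 0.05 and with 1 sign for both compounds, 7 were lower and 0 higher, against 19.8% and 13.9%. The list's median level was 5.12, in quintile 2. The mean log2 level of the list on single arrays ran from 5.83 to 5.99 in untreated cells, from 5.53 to 5.64 with Ac-GlcNAc and from 5.47 to 5.49 with Ac-4-deoxy-GlcNAc. Whether another cell type had a part in the collagen result was not tested.

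Several genes of the set of 100 encode adhesion and surface proteins; they were picked from the set with their values known and belong to no counted list, apart from MUC1 of the epithelial list above. ITGB6, an integrin subunit that binds latent TGF-beta, was at 9.27, 9.26 and 9.41, then 8.76, 8.75 and 9.10, then 8.41, 8.54 and 8.35. ITGB4, the integrin subunit of hemidesmosomes, was at 10.28, 10.19 and 10.18, then 9.94, 9.99 and 9.79, then 9.06, 9.10 and 9.22. All treated arrays were lower, those of the analog most. ITGB6 fell by 0.66 (SE 0.10, adjusted p = 0.00399, limma) and ITGB4 by 0.70 (SE 0.08, adjusted p = 0.00158), of which -0.31 was seen with Ac-GlcNAc and -1.09 with the analog. MPZL2, an epithelial adhesion protein, fell by 0.82 (SE 0.11, adjusted p = 0.00266) and was called with each compound, with Ac-GlcNAc at an adjusted p of 0.0494 (limma).

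MUC1, a transmembrane mucin, was at 8.32, 8.56 and 8.53 in untreated cells, 7.92, 7.95 and 7.89 with Ac-GlcNAc, and 7.73, 7.79 and 7.74 with Ac-4-deoxy-GlcNAc. The treated arrays were tight and lower. MUC1 fell by 0.63 (SE 0.08, adjusted p = 0.00209, limma) and was called with each compound, whose difference had an interval from -0.37 to 0.04. IGFBP5, a binding protein of insulin-like growth factors, was at 8.59, 8.56 and 8.66, then 8.05, 8.16 and 8.13, then 7.87, 8.14 and 8.0. It fell by 0.55 (SE 0.08, adjusted p = 0.00494) and was called with each compound, with Ac-GlcNAc at an adjusted p of 0.0494 (limma). The interval of the difference between compounds ran from -0.32 to 0.10.

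AMTN, which encodes the enamel protein amelotin, had the largest fall of the 100 genes. It was at 11.04, 11.28 and 11.40 in untreated cells, 10.48, 10.42 and 10.40 with Ac-GlcNAc, and 8.82, 9.05 and 9.17 with Ac-4-deoxy-GlcNAc. The 3 groups were far apart relative to their spread. It fell by 1.51 (SE 0.10, 2.85-fold, adjusted p = 1.39e-05, limma), and by 1.49 without untreated replicate 2. AMTN closes a run of 13 protein-coding genes on chromosome 4 that begins at STATH and holds genes of saliva, milk and tooth proteins. Of 10 measured, 5 were shared lower (STATH, ODAM, CSN3, OPRPN and AMTN) and 0 higher, against 6.2% and 5.08% of single-gene probe sets. In the lowest quintile of level, 416 of 2883 were shared lower and 3 higher. Of the 10 genes, 3 belonged to the set of 100.

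OPRPN, an opiorphin precursor gene, was at 6.27, 6.71 and 6.58, then 5.71, 5.88 and 5.63, then 5.28, 5.93 and 5.51. It fell by 0.86 (SE 0.13, adjusted p = 0.00593, limma), with -0.78 and -0.94, and the difference was -0.77 without untreated replicate 2. STATH, for the saliva protein statherin, fell by 0.63 (SE 0.11, adjusted p = 0.0106), from an untreated mean of 4.83. The 5 measured genes of the run that were not called were at -0.12 to -0.54. Their untreated means lay in the low range where untreated replicate 2 read high, like those of STATH, ODAM (4.51) and CSN3 (4.85).

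NMUR2, a receptor for neuromedin peptides, was at 9.27, 9.49 and 9.42 in untreated cells, 8.74, 8.60 and 8.86 with Ac-GlcNAc, and 7.76, 7.72 and 7.68 with Ac-4-deoxy-GlcNAc. Ac-GlcNAc arrays again lay between. It fell by 1.16 (SE 0.09, 2.24-fold, adjusted p = 3.1e-05, limma). LRRN1, a neuronal leucine-rich repeat protein, was at 9.82, 9.91 and 9.87, then 9.16, 9.12 and 9.39, then 9.04, 8.73 and 9.22, and fell by 0.76 (SE 0.11, adjusted p = 0.00326). PIN4, a parvulin prolyl isomerase, was at 6.70, 7.0 and 6.87, then 5.47, 5.94 and 5.42, then 6.19, 6.32 and 5.74, and fell by 1.01 (SE 0.14, adjusted p = 0.00308). All 3 genes were called with each compound, LRRN1 with an adjusted p of 0.0456 for Ac-GlcNAc (limma).

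VSNL1, a neuronal calcium sensor, FOXS1, a forkhead factor, and HES1, the Notch-induced repressor, fell mostly with the analog. Their values were -0.43, -0.39 and -0.32 with Ac-GlcNAc, none called, and -1.45, -1.32 and -1.36 with Ac-4-deoxy-GlcNAc. HES1 was at 8.98, 9.21 and 9.36 in untreated cells and 9.05, 8.73 and 8.80 with Ac-GlcNAc, so that these groups overlapped. The analog's 7.61, 7.96 and 7.90 lay below both. C2orf74-DT, a divergent transcript, was at -0.05 with Ac-GlcNAc (adjusted p = 0.78, limma) and -1.26 with the analog, so that its direction with Ac-GlcNAc could not be told.

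Low-level genes made up a share of the falls. Of the 62 lower genes, 26 lay in the 2 lowest quintiles of level (10 and 16), and 1 of the 38 higher genes did. Examples are ADAD1 at -0.82, GAPT at -0.66, VN1R5 at -0.67 and HPD at -0.66, whose untreated means lay from 4.62 to 5.19 and which are best known from testis (ADAD1), blood cells (GAPT), pheromone receptors (VN1R5) and liver (HPD). GAPT was at 4.61, 5.04 and 4.63, then 4.17, 4.11 and 3.98, then 4.12, 4.21 and 4.00, and HPD was at 5.05, 5.56 and 4.96, then 4.49, 4.60 and 4.32, then 4.67, 4.57 and 4.55. In both, untreated replicate 2 was the highest array, and without it the differences were -0.52 and -0.47. The deposited values carry no measure of background, so these are levels on the array scale only.

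Ranked by the smaller of the 2 compounds' changes, among shared genes whose arrays did not overlap, the 12 largest rises and 12 largest falls included many that rested on untreated replicate 2. ZNF675, a zinc finger gene, was at 8.93, 7.27 and 8.72 in untreated cells and between 9.23 and 9.47 on all treated arrays, and its difference of 1.05 was 0.53 without untreated replicate 2. ZDHHC20, a palmitoyltransferase, went from 0.72 to 0.35, YWHAZ, a 14-3-3 protein, from 0.68 to 0.42, and MSANTD4 from 0.60 to 0.33. ZNF271P and OAZ1, which encodes ornithine decarboxylase antizyme, went from 0.74 to 0.51 and from 0.62 to 0.49. Of these 6 rises ZNF675 alone was called without untreated replicate 2 (adjusted p = 0.017, limma). Among the falls, ANP32D went from -0.87 to -0.41 and KRTAP5-6 from -0.99 to -0.56. OR6C3, TAS2R39, CD1B, PLCZ1, TMEM196 and RPS2P32 were at -1.26 to -0.81 with all arrays and at -1.16 to -0.60 without untreated replicate 2.

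Other programmes had few shared genes, to be read against the background of 5.08% higher and 6.2% lower. No shared gene was found among 30 DNA replication genes, 17 p53 targets, 26 genes of glycolysis and hypoxia and 27 proteasome genes in the limma fit. At an unadjusted p under 0.05 and with 1 sign for both compounds, 6, 5, 7 and 9 of them were higher and 0, 0, 3 and 1 lower, against 13.9% and 19.8% of single-gene probe sets. Of 29 mitosis genes 2 were higher, of 32 respiratory chain genes 1 was higher, and of 30 growth factor and ERK response genes 1 was lower. Of 26 interferon genes 3 were lower and of 26 TGF-beta response genes 3 were lower, none of them without untreated replicate 2. Outside the interferon list, the set of 100 held the interferon-induced membrane protein gene IFITM1, at -0.67 (-0.60 without untreated replicate 2, adjusted p = 0.042, limma), and the MHC class I gene HLA-F, at -0.40 (-0.42, adjusted p = 0.048). Of 12 leukocyte markers 1 was lower, PTPRC, from an untreated level of 4.43, and of 9 endothelial and erythroid markers 1 was higher, PECAM1.

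**Figure D4:**
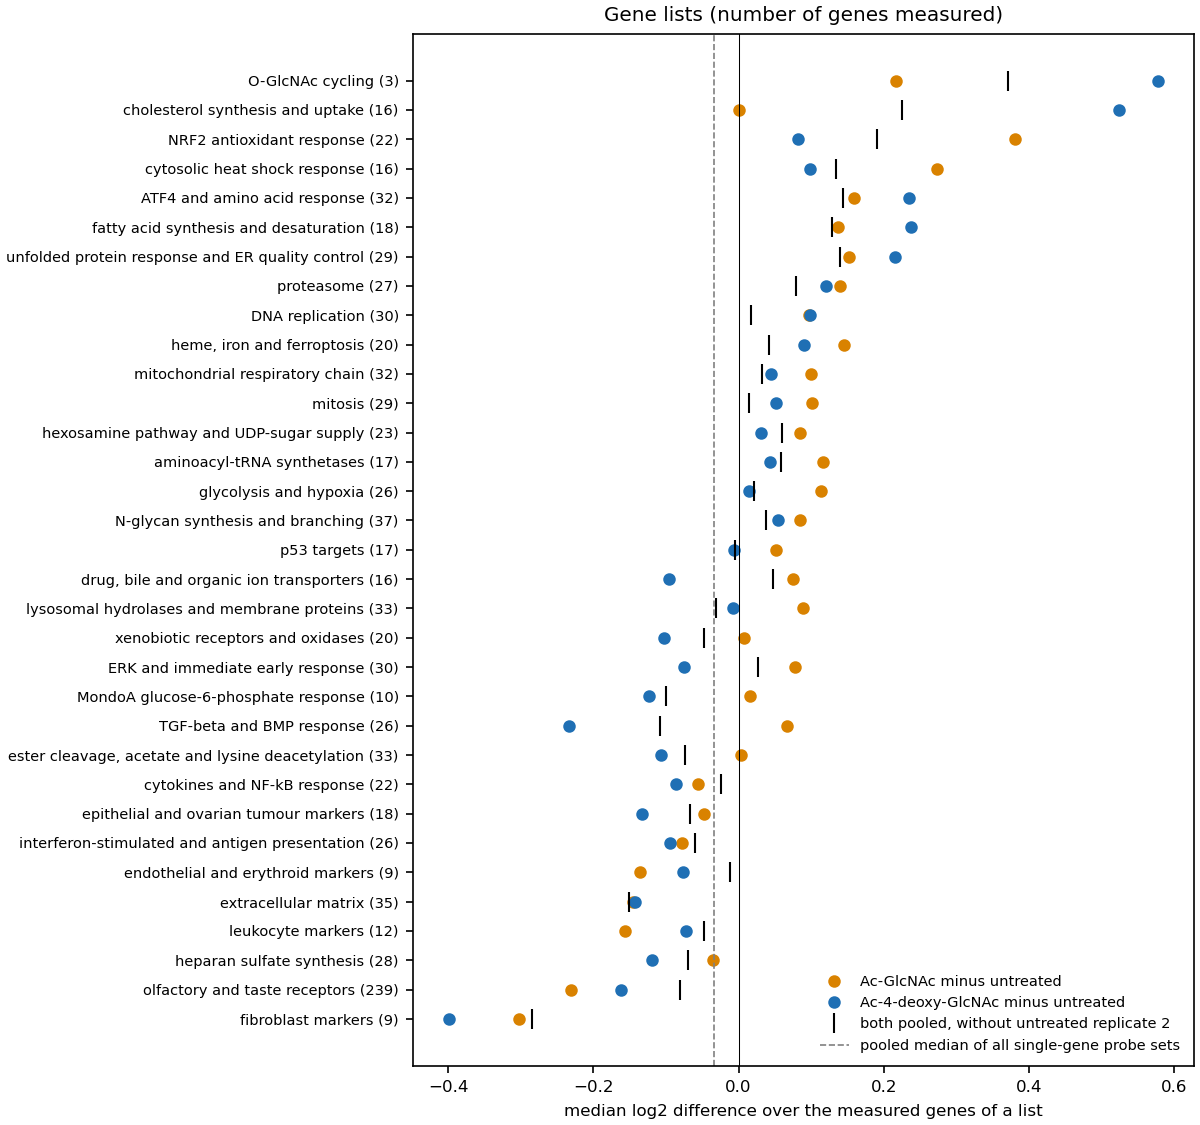
Median log2 difference from untreated over the measured genes of 33 lists (numbers in brackets) for Ac-GlcNAc (orange), Ac-4-deoxy-GlcNAc (blue) and both pooled without untreated replicate 2 (black bars); both compounds share the untreated arrays. The NRF2 list lies at 0.38 and 0.08, the ATF4 list at 0.16 and 0.23, and the cholesterol list at 0.00 and 0.52.

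Of 16 cholesterol synthesis and uptake genes 6 were shared higher, against 5.08%, among them DHCR7, NSDHL, MVK and IDI1, but the list's median was 0.00 with Ac-GlcNAc and 0.52 with Ac-4-deoxy-GlcNAc. HMGCS1, the synthase before the rate-limiting step, was called in the pooled comparison at 0.29 with opposite signs, -0.16 and 0.73, and so was not shared. Of 18 fatty acid synthesis and desaturation genes 4 were shared higher (SCD, ACACB, PNPLA3 and ME1), against 5.08%, with list medians of 0.14 with Ac-GlcNAc and 0.24 with the analog and 14 genes positive with both. ME1 was at 0.52 and 0.41 and PNPLA3 at 0.09 and 0.95 with Ac-GlcNAc and the analog. For DHCR7 and PNPLA3 the difference with Ac-GlcNAc was -0.03 and -0.02 without untreated replicate 2, so that its sign rested on that array. No gene of either list was called without untreated replicate 2. ENPP2, the lysophospholipase autotaxin, moved apart completely: it was at 6.56, 6.35 and 6.37 in untreated cells, 7.77, 7.66 and 7.68 with Ac-GlcNAc, and 5.38, 5.39 and 5.69 with the analog, and its pooled difference was 0.17.

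The compounds were compared directly as 1 pair at matched dose and time, Ac-4-deoxy-GlcNAc minus Ac-GlcNAc, a contrast that does not use the untreated means. It called 425 of 17859 probe sets, or 2.38%, and 122 of the 1625 shared ones (7.51%). Of these 122, 55 were shared higher, 48 of them with the larger change under the analog, and 67 were shared lower, all with the larger change under the analog. In the set of 100, 33 differed: 14 higher genes, 11 with the larger change under the analog, and 19 lower genes, all with the larger change under the analog. The 3 higher genes that changed more with Ac-GlcNAc were HMOX1, AKR1C3 and ABCC2, all from the NRF2 list.

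For 49 of the 100 genes the 95% interval of the difference between compounds lay within 1.5-fold in either direction. TXNRD1, MUC1, IGFBP5, MMP10, NHLRC2 and CNOT7 were among them. For NHLRC2 the interval ran from -0.22 to 0.18 and for CNOT7 from -0.20 to 0.23. DYNLL1 was also among them, with a wide interval from -0.49 to 0.49. For CHORDC1 it ran from -0.12 to 0.98, so that neither equality nor a difference of 1.5-fold could be told. The analog's change was the larger of the pair for 84 of the 100 genes, called or not.

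**Figure D5:**
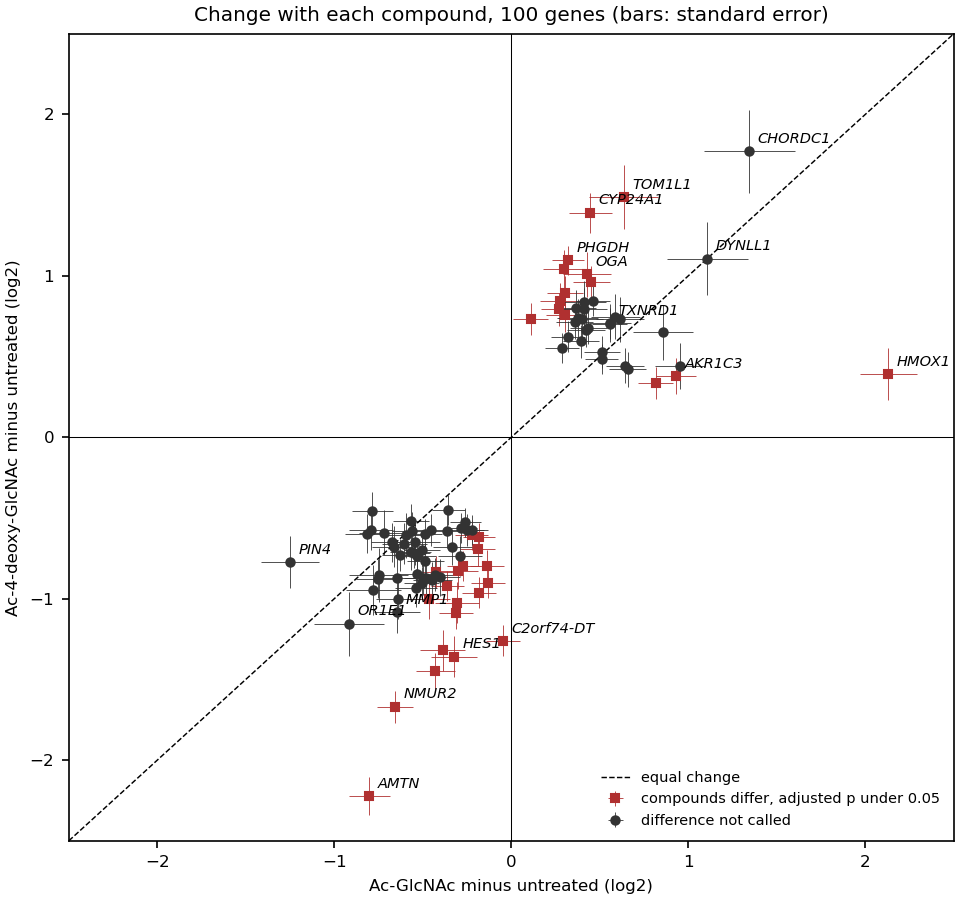
Log2 difference from untreated with Ac-GlcNAc (horizontal) and Ac-4-deoxy-GlcNAc (vertical) for the 100 genes, with standard errors; both axes share the 3 untreated arrays, so points near the diagonal are partly tied. Squares mark the 33 genes called as different between compounds, most of which lie farther from 0 on the vertical axis, with HMOX1, AKR1C3 and ABCC2 the exceptions among the higher genes.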

How the data were processed

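Total RNA of 9 SKOV3 cultures was measured on Affymetrix arrays, 1 array per flask. Per the submitters' processing notes, the authors ran RMA in Partek (hg18); versions and settings are not given in the sources used here. The deposited table holds log2 values, 1 per probe set and array; no scan date or batch is given in the sources used here. Array medians were 6.58 to 6.65. Precision is limited by the number of arrays, with a median standard error of 0.09 for a pooled difference.

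Of 17859 probe sets 14413 named 1 gene, 2405 several and 1041 none, per the platform annotation; 14385 matched RefSeq (GRCh38.p14) by gene ID. Probe sets of several genes gave no gene name. The values were fitted with limma 3.58.1 in R 4.3.3 (lmFit, eBayes) as 3 groups with 6 residual degrees of freedom, with two-sided tests and p-values adjusted by Benjamini-Hochberg over the 17859.

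Members and the 33 gene lists (960 of 1114 entries measured) were chosen with earlier results of these data known. Named genes were the 12 largest rises and 12 largest falls without overlap, ranked by the smaller compound change, up to 4 shared genes per list (or 2 where none), 8 preset genes and up to 5 with the largest compound difference. Genes of the set of 100, promoters and other list members were named after their values were seen. The labels do not say that equal replicate numbers pair arrays, and the main fit used no pairing. Deviations of arrays of equal number correlated at -0.245 to 0.369, which cannot settle pairing with 3 arrays per group. Other settings were a replicate block, 3 normalizations, level filters, array weights, trend and robust options, an SD covariate and leaving out arrays.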

Additional observations from a re-analysis of the deposited data

Results flagged for a closer look

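In 5 genes the change with 1 compound differed from that with the other by more than the spread between arrays, in the direct contrast of Ac-4-deoxy-GlcNAc minus Ac-GlcNAc (limma, adjusted over all probe sets). They are the largest such differences among shared genes, and the log2 values are these. HMOX1, heme oxygenase 1, differed by -1.74, higher with Ac-GlcNAc. AMTN, amelotin, differed by -1.42, lower with the analog. C2orf74-DT, a divergent transcript, differed by -1.21, and HES1, a Notch-induced repressor, by -1.04, both lower with the analog. SYNE2, a nuclear envelope protein that binds the cytoskeleton, differed by 1.02, at 0.19 with Ac-GlcNAc and 1.21 with the analog. SYNE2 was shared in the fit of all arrays and not called in the pooled comparison without untreated replicate 2 (0.63, adjusted p = 0.065, limma).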

How the results depend on the processing

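The pooled difference of the 1625 shared probe sets and of the 116 named genes kept its sign in each of the 20 other settings that tested the probe set. The difference with Ac-GlcNAc alone changed sign in some setting for 8 of the 116, and that with the analog for 1. The median pooled difference changed sign for 10 of 33 lists after cyclic loess and for 3 without untreated replicate 2. The counts of calls moved. With 1 array left out in turn, pooled calls ranged from 145 to 3777, shared calls from 106 to 3045, calls with each compound from 1 to 785 and shared calls that differed between compounds from 38 to 127. The lowest pooled and shared counts came without untreated replicate 2 and the highest without untreated replicate 1. In the order pooled, shared and called with each compound, against 2033, 1625 and 37, cyclic loess gave 1273, 1020 and 23 and quantile normalization 1239, 1004 and 18. The SD covariate gave 4, 4 and 0, with 3 shared calls between compounds; at an unadjusted p under 0.05 it gave 282 called with each. Leaving out both replicate 2 of the untreated arrays and replicate 1 of the analog gave 229, 163 and 15, with 46 between compounds. As 1 group, the 6 treated arrays gave 1064 pooled calls. Calls with each compound were 14 after median centring, 86 above the 50th percentile of level, 77 with trend and robust options and 504 with array weights, which gave 262 shared calls between compounds against 122. The set shared in each of the 9 fits, chosen after seeing the data, held 100. The replicate block gave 1998 shared calls and 188 called with each compound, and 3 of 9 arrays deviated most like an array of their own number. The share of shared calls that were higher was 45% and became 64.5% and 80.8% above the 25th and 50th percentile of level and 31.6% without untreated replicate 3. Of 116 named genes 78 lost the pooled call without untreated replicate 2 and 105 with the SD covariate. Of the 100 genes, 98 were called after cyclic loess and 4 with the SD covariate. The cause of these changes was not tested.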
